A study of Mus musculus with 15 samples.

Results

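The genes that place and read methylation on DNA were followed in mouse embryonic stem cells after knockdown of Tet1 or Sin3a. The 9 members included Dnmt1 and Uhrf1, which belong to maintenance methylation, and Uhrf2, a paralogue of Uhrf1. The others were Dnmt3a, Dnmt3b and Dnmt3l, which belong to de novo methylation, and the methyl-CpG-binding domain genes Mbd1, Mbd2 and Mbd3. All 9 were taken by gene symbol from the platform annotation, out of 18784 genes with a symbol of their own, and each had 1 probe set. All cells were E14TG2a.4, a feeder-independent mouse embryonic stem cell line kept on gelatin with serum and leukaemia inhibitory factor, used at passage 17. Lentiviruses built on the PLKO.1 vector carried the hairpins (shRNAs), which cells process into small RNAs that lead to the destruction of a matching transcript. Puromycin at 2 µg per ml was added 36 hours after transduction and selection lasted 72 hours, also for the scrambled controls. The first set held Tet1 shRNA 4, Tet1 shRNA 5 and a scrambled shRNA, and the second set held a Sin3A shRNA and its own scrambled shRNA, with 3 Affymetrix arrays in each of the 5 groups. Only 1 hairpin was used against Sin3a, and no label states whether the arrays within a group are separate cultures. A p-value here thus reflects array-to-array spread alone, and that spread may be technical.

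Cytosine methylation in mammals sits mostly at CpG, a cytosine followed by a guanine. Dnmt3a and Dnmt3b set new marks, helped by Dnmt3l, a relative without catalytic activity of its own, and Dnmt1 copies existing marks after DNA replication with the help of Uhrf1, which binds half-methylated CpG sites. Proteins with a methyl-CpG-binding domain connect methylated DNA to co-repressors, and Tet enzymes such as Tet1 oxidise methylcytosine. Sin3a holds together a co-repressor complex with histone deacetylases. Stem cells in serum express the de novo enzymes, and their level changes as the cells leave or enter the formative state of the early epiblast.

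The promoter windows of 3 members are shown because these genes differ in their responses below and because CpG is the site of the mark. Each window holds 300 bases, 250 before and 50 after a RefSeq transcript start (GRCm38.p6), written 5′ to 3′ on the strand of the gene, with every CG in capitals. The motif searched was CG, which reads the same on both strands.
Dnmt3b, chr2:153649199-153649498, plus strand: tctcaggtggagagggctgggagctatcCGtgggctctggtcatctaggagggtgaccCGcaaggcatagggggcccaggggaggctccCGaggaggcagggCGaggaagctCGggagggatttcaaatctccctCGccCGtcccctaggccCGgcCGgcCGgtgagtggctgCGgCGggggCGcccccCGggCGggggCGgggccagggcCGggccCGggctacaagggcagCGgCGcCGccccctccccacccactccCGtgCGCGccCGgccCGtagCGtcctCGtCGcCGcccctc
Uhrf2, chr19:30030263-30030562, plus strand: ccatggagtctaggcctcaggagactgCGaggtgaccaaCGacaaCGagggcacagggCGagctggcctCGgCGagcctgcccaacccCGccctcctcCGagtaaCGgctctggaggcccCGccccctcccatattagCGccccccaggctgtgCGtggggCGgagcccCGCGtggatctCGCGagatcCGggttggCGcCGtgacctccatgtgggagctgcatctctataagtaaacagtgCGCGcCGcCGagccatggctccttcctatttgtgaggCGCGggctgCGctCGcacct
Dnmt3l, chr10:78055085-78055384, plus strand: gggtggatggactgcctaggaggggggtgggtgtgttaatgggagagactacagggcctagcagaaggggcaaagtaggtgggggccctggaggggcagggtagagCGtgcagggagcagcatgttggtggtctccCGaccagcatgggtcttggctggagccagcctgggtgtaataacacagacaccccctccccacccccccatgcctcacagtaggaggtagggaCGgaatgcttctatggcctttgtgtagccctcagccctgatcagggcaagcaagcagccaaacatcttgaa
The Dnmt3b window held 30 CG (11.7% of 32851 windows of all genes held as many or more), and the Uhrf2 window held 28 (14.2% of windows held as many or more). The 3 windows of Dnmt3l held 6, 4 and 3, of which the last is printed (76.7% of windows held as many or more), and the median over all genes was 7. The printed Dnmt3l window is thus the poorest in CG of its 3, and which start these cells used was not measured. The windows of Dnmt3a held 46, 47 and 18, those of Dnmt1 2, 12 and 33, those of Uhrf1 12 and 33, and that of Mbd3 22. Over these 14 windows of 7 members the poorest and the richest in CG belonged to Dnmt1 and Dnmt3a. These counts describe sequence letters and not methylation, which was not measured here.

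The deposited values were log2 levels, in which a difference of 1 is a 2-fold change. Array means lay between 7.08 and 7.11 in the Tet1 set and at 8.09 in the Sin3A set, so levels are set side by side only within a set. Within a group, any pair of replicate arrays had a correlation over probe sets of 0.994 to 0.998. In the Tet1 set, scrambled replicate 2 and Tet1 shRNA 4 replicate 2 deviated from their groups alike (r = 0.517 between their deviations over 21212 probe sets, which are not independent). The targeted Tet1 transcript had a log2 level of 10.43, 10.44 and 10.39 with Tet1 shRNA 4 and 9.94, 10.14 and 10.20 with Tet1 shRNA 5, against 12.21, 12.17 and 12.21 with the scrambled shRNA. Sin3a had 9.35, 9.38 and 9.43 with the Sin3A shRNA, against 10.87, 10.99 and 10.94 with its scrambled shRNA. All 10 stem cell markers examined, among them Pou5f1, Nanog, Sox2 and Zfp42, lay above the median probe set on every array. With both Tet1 shRNAs 2 of the 10 rose and 0 fell, and with the Sin3A shRNA 2 rose and 1 fell. Klf4 rose with Tet1 shRNA 4, Tet1 shRNA 5 and the Sin3A shRNA by 0.47, 0.27 and 0.41 on the log2 scale (limma adjusted p = 0.00106, 0.0195 and 0.000791), and Tdgf1 rose with both Tet1 shRNAs by 0.23 and 0.20 (limma adjusted p = 0.0202 and 0.0387). Tfcp2l1 fell by 0.28 with Tet1 shRNA 5 and rose by 0.26 with the Sin3A shRNA, which lowered Nanog (-0.27), with limma adjusted p of 0.00605, 0.0067 and 0.00976. Of 7 fibroblast markers, 1 lay above the median probe set on all arrays of each group in the Tet1 set and 2 in the Sin3A set. With the Tet1 shRNAs and the Sin3A shRNA 0 of the 7 were called. Their summed linear level was 475 to 582 with Tet1 shRNA 4 and 515 to 545 with Tet1 shRNA 5, against 542 to 658 with the scrambled shRNA. In the Sin3A set it was 1187 to 1405 with the Sin3A shRNA, against 1281 to 1463 with the scrambled shRNA.

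Of the 9 genes, 1 rose and 1 fell with both Tet1 shRNAs, and 5 passed the test with the Sin3A shRNA. Dnmt3b was lower with both Tet1 shRNAs, Mbd2 was higher with both, and the Sin3A shRNA raised Dnmt1 and Dnmt3b and lowered Uhrf2, Mbd3 and Dnmt3a. A gene was called when its limma p was under 0.05 after Benjamini-Hochberg adjustment, which ran over the 21212 probe sets of the array. With Tet1 shRNA 4, 3 of 9 members were called, where 11.6% of all probe sets were, with 1 higher (6.88% of all probe sets) and 2 lower (4.71%). With Tet1 shRNA 5, 3 of 9 were called, where 13.8% of all probe sets were, with 2 higher (8.37%) and 1 lower (5.46%). With the Sin3A shRNA, 5 of 9 were called, where 24.8% of all probe sets were, with 2 higher (12.2%) and 3 lower (12.6%). The scrambled arrays are shared by both Tet1 comparisons. Called for both with the same sign were 2 of 9 members and 8.81% of all probe sets, with 1 member higher (5.4% of all probe sets) and 1 lower (3.4%). Every member call for a Tet1 shRNA stayed past the threshold under the 17 other settings tried, among them the fits without both arrays that deviated alike. Over the 9 genes, the median log2 change was 0.01 with Tet1 shRNA 4, 0.01 with Tet1 shRNA 5 and 0.01 with the Sin3A shRNA, while the median of all probe sets was -0.003, -0.004 and 0.006 in these comparisons. In each comparison some members rose and others fell.

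**Figure D1:**
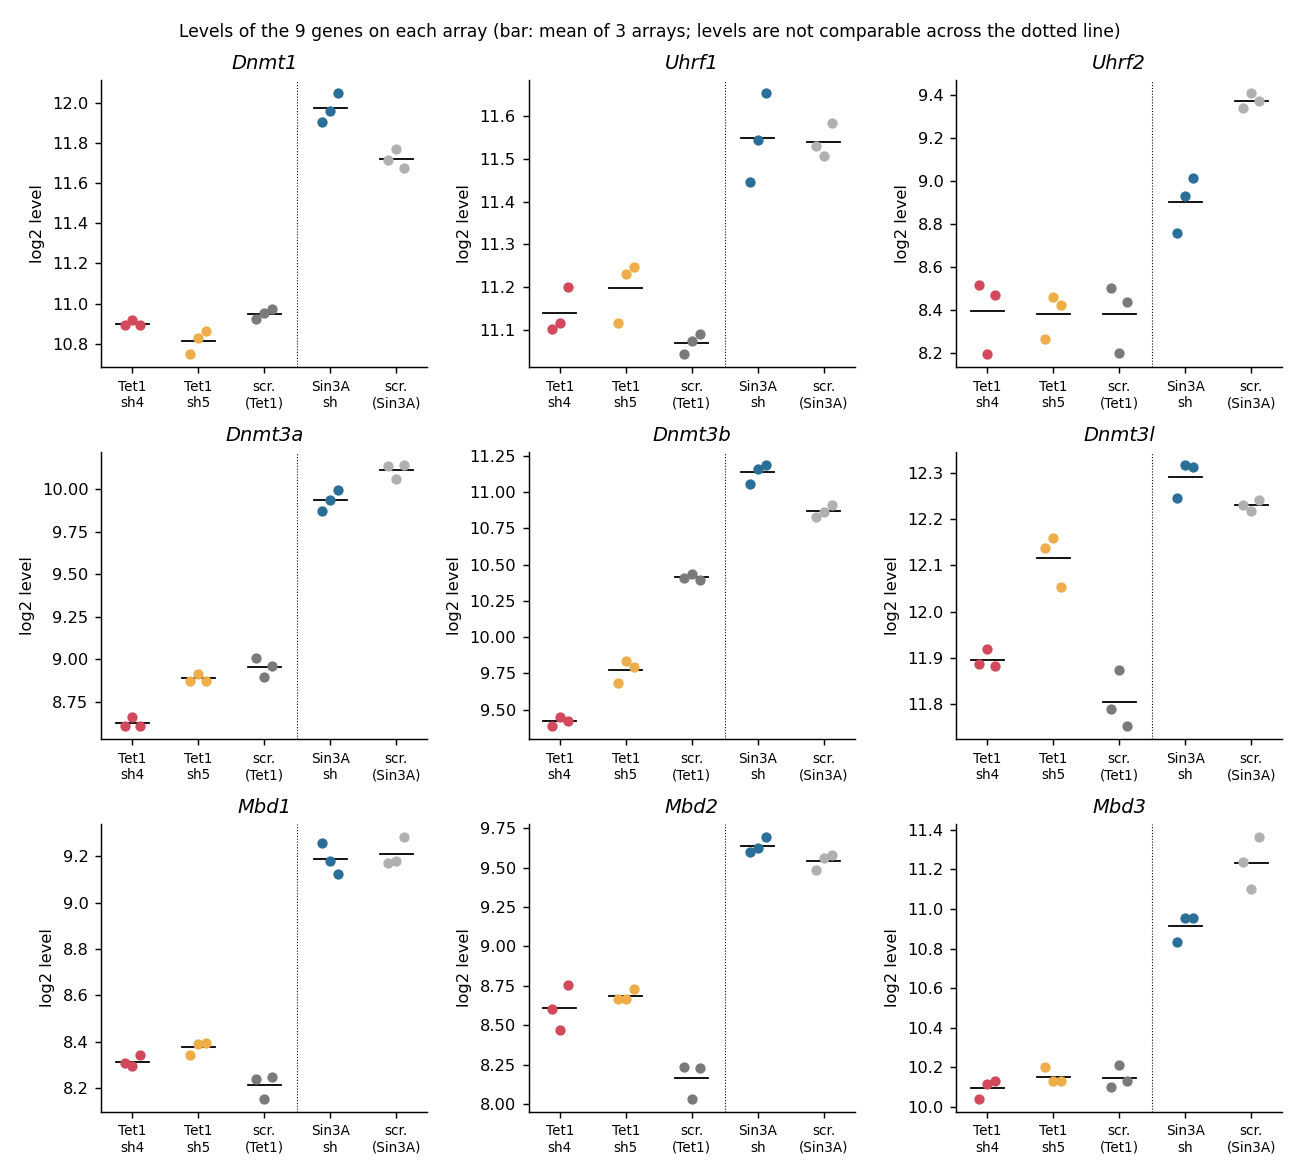
Log2 level of each of the 9 genes on each of the 15 arrays (points), with the mean of 3 arrays as a bar. Groups run from Tet1 shRNA 4, Tet1 shRNA 5 and their scrambled shRNA on the left to the Sin3A shRNA and its scrambled shRNA on the right, and levels are not comparable across the dotted line. All 6 Tet1 shRNA arrays of Dnmt3b lie below the 3 scrambled arrays, and all 6 of Mbd2 lie above them.

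Among the de novo genes Dnmt3b, which methylates CpG sites in the early embryo and at pericentromeric repeats, changed most. Its log2 level was 9.38, 9.45 and 9.42 with Tet1 shRNA 4 and 9.68, 9.84 and 9.79 with Tet1 shRNA 5, against 10.41, 10.44 and 10.40 with the scrambled shRNA. The 3 groups did not overlap, and the shRNA 4 arrays were the lowest. Dnmt3b fell 1.99-fold with shRNA 4 (log2 change -0.99 ± 0.06, SE, n = 3 arrays per group, limma adjusted p = 1.14e-05) and 1.56-fold with shRNA 5 (-0.64 ± 0.06, limma adjusted p = 0.000126). Each 95% confidence interval lay below 0, from -1.13 to -0.86 for shRNA 4 and from -0.77 to -0.51 for shRNA 5. The size differed between the hairpins by 0.35 ± 0.06 (SE), with less reduction under shRNA 5, and this contrast missed the threshold (limma adjusted p = 0.0705). It passed under 3 of 17 other settings (adjusted p between 0.00909 and 0.345 over the 17). The level of Tet1 itself was lower on all 3 shRNA 5 arrays than on any shRNA 4 array, but this contrast did not pass either (-0.33, limma adjusted p = 0.165). Over the 17 other settings, the fit without both arrays that deviated alike included, the Dnmt3b changes ran from -1.01 to -0.98 for shRNA 4 and from -0.67 to -0.60 for shRNA 5.

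In the Sin3A set Dnmt3b went the other way. It had 11.06, 11.16 and 11.19 with the Sin3A shRNA, against 10.83, 10.86 and 10.91 with the scrambled shRNA. The groups did not overlap, and the rise was 1.20-fold (log2 change 0.27 ± 0.06, SE, n = 3 arrays per group, limma adjusted p = 0.0102).

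Dnmt3a, the other catalytic de novo enzyme, had 8.61, 8.66 and 8.61 with Tet1 shRNA 4 and 8.88, 8.92 and 8.88 with Tet1 shRNA 5, against 9.01, 8.90 and 8.96 with the scrambled shRNA. Arrays of shRNA 4 lay below all others, and those of shRNA 5 overlapped the scrambled arrays. Dnmt3a fell with shRNA 4 (log2 change -0.33 ± 0.06, SE, n = 3 arrays per group, limma adjusted p = 0.00369), and its change with shRNA 5, -0.07, missed the threshold (limma adjusted p = 0.522). The contrast of shRNA 5 with shRNA 4 was 0.26 ± 0.06, and it did not pass (limma adjusted p = 0.152). With the Sin3A shRNA Dnmt3a had 9.87, 9.94 and 9.998, against 10.13, 10.06 and 10.14 with the scrambled shRNA. That decrease of 0.18 on the log2 scale only just passed (limma adjusted p = 0.0491). The call was lost without any 1 of the 6 arrays of the set (adjusted p = 0.143, 0.0593 and 0.128 without scrambled replicates 1, 2 and 3, and 0.114, 0.137 and 0.05 without Sin3A shRNA replicates 1, 2 and 3), and also with arrays centred on their median (0.0551) or with a replicate block (0.0964), within a range of 0.0221 to 0.143 over 12 settings.

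Dnmt3l, the cofactor of both enzymes, had 11.89, 11.92 and 11.88 with Tet1 shRNA 4 and 12.14, 12.16 and 12.05 with Tet1 shRNA 5, against 11.79, 11.87 and 11.75 with the scrambled shRNA. Both Tet1 groups lay above the scrambled arrays without overlap, the shRNA 5 arrays highest. The rise passed with shRNA 5 (log2 change 0.31 ± 0.06, SE, n = 3 arrays per group, limma adjusted p = 0.00629), and with shRNA 4 the value of 0.09 did not (limma adjusted p = 0.412). The difference between the hairpins, 0.22 ± 0.06, did not pass either (limma adjusted p = 0.255). With the Sin3A shRNA Dnmt3l had 12.25, 12.32 and 12.31, against 12.23, 12.22 and 12.24 with the scrambled shRNA. All 3 Sin3A shRNA arrays were higher, but the change of 0.06 did not pass (limma adjusted p = 0.416), with a 95% confidence interval from -0.05 to 0.17. The 3 de novo genes therefore did not share a direction: with Tet1 shRNA 4 Dnmt3a and Dnmt3b fell, and with Tet1 shRNA 5 Dnmt3b fell and Dnmt3l rose.

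Dnmt3b marks the formative epiblast in the embryo, so markers of epiblast and early differentiation are given beside it, not all of them genes of that state. The 6 measured markers of epiblast and early differentiation (Fgf5, Otx2, Pou3f1, Sox1, Pax6 and Mixl1) had a summed linear level of 1512 to 1587 with Tet1 shRNA 4 and 1615 to 1673 with Tet1 shRNA 5, against 1935 to 2086 with the scrambled shRNA. The sum was 2326 to 2401 with the Sin3A shRNA, against 3177 to 3465 with its scrambled shRNA. Of the 6 markers 4 fell with Tet1 shRNA 4, 3 with Tet1 shRNA 5, the same 3 with both, and 3 with the Sin3A shRNA, and 0 rose in any of these comparisons. With Tet1 shRNAs 4 and 5 the epiblast gene Fgf5 fell by 0.66 and 0.36 on the log2 scale (limma adjusted p = 0.000221 and 0.00609) and Pax6, a neural gene, by 0.64 and 0.49 (limma adjusted p = 0.000947 and 0.00375). Otx2 fell by 0.32 and 0.39 with these shRNAs (limma adjusted p = 0.0328 and 0.0123), and Pou3f1 by 0.60 with shRNA 4 (limma adjusted p = 0.0189). In the Sin3A set, where Dnmt3b rose, Otx2, Pou3f1 and Pax6 fell by 1.09, 0.31 and 0.18 (limma adjusted p = 6.66e-05, 0.0143 and 0.0254). The 6 primitive endoderm markers (Gata6, Gata4, Sox17, Pdgfra, Sox7 and Foxa2) summed to 729 to 802 with Tet1 shRNA 4 and 762 to 795 with Tet1 shRNA 5, against 579 to 722 with the scrambled shRNA, and 1 of them, Sox7, rose with both (0.80 and 0.83, limma adjusted p = 0.00235 and 0.00182). The sum was 1382 to 1479 with the Sin3A shRNA, against 1280 to 1353 with its scrambled shRNA, and Sox7 again was the 1 called, at 0.45 (limma adjusted p = 0.000694). The part of these markers in the changes of the 9 genes was not tested, and in bulk RNA fewer cells of a type and less RNA per cell cannot be told apart.

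**Figure D2:**
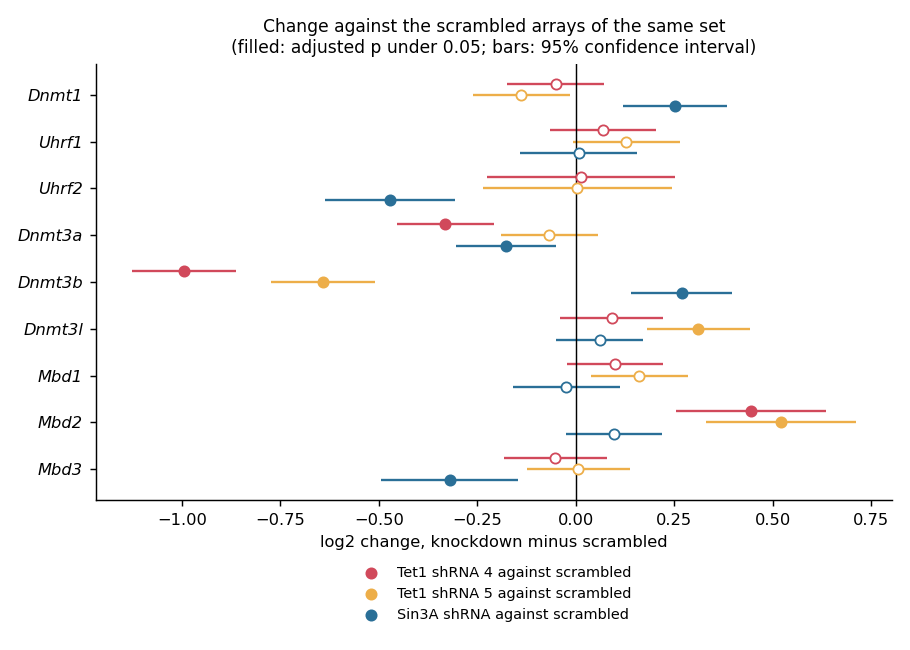
Log2 change of each gene against the scrambled arrays of the same set, with its 95% confidence interval from limma, for Tet1 shRNA 4, Tet1 shRNA 5 and the Sin3A shRNA (3 arrays per group). Filled points had an adjusted p under 0.05. Dnmt3b lies at -0.99 and -0.64 for the Tet1 shRNAs and at 0.27 for the Sin3A shRNA, and Uhrf2 lies near 0 for both Tet1 shRNAs and at -0.47 for the Sin3A shRNA.

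Dnmt1, Uhrf1 and Uhrf2 did not pass with either Tet1 shRNA. Dnmt1, the maintenance enzyme, had 10.89, 10.92 and 10.89 with Tet1 shRNA 4 and 10.75, 10.83 and 10.86 with Tet1 shRNA 5, against 10.92, 10.95 and 10.98 with the scrambled shRNA. Its log2 changes were -0.05 and -0.14 (limma adjusted p = 0.662 and 0.143), and the 95% confidence intervals, from -0.17 to 0.07 and from -0.26 to -0.02, set bounds on any decrease. All 6 knockdown arrays lay below the scrambled ones. In the Sin3A set Dnmt1 had 11.91, 11.96 and 12.05 with the Sin3A shRNA, against 11.72, 11.77 and 11.68 with the scrambled shRNA. It rose there 1.19-fold without overlap (log2 change 0.25 ± 0.06, SE, n = 3 arrays per group, limma adjusted p = 0.0153). Leaving out scrambled replicate 1, scrambled replicate 3 or Sin3A shRNA replicate 2 ended this call (adjusted p = 0.0528, 0.0522 and 0.0544), within a range of 0.0017 to 0.0544 over 12 settings.

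Uhrf1, the partner that brings Dnmt1 to replicating DNA, had 11.10, 11.12 and 11.20 with Tet1 shRNA 4 and 11.12, 11.23 and 11.25 with Tet1 shRNA 5, against 11.04, 11.07 and 11.09 with the scrambled shRNA. Every Tet1 shRNA array was higher than the scrambled arrays, but changes of 0.07 and 0.13 did not pass (limma adjusted p = 0.556 and 0.216). In the Sin3A set Uhrf1 had 11.45, 11.54 and 11.65 with the Sin3A shRNA, against 11.53, 11.51 and 11.58 with the scrambled shRNA. These groups overlapped, with a change of 0.01 and a 95% confidence interval from -0.14 to 0.16.

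Uhrf2, the paralogue of Uhrf1, had 8.76, 8.93 and 9.01 with the Sin3A shRNA, against 9.34, 9.41 and 9.37 with the scrambled shRNA. It was the member with the largest change in that set, a 1.39-fold reduction without overlap (log2 change -0.47 ± 0.07, SE, n = 3 arrays per group, limma adjusted p = 0.00254). In the Tet1 set Uhrf2 had 8.52, 8.20 and 8.47 with Tet1 shRNA 4 and 8.27, 8.46 and 8.42 with Tet1 shRNA 5, against 8.50, 8.20 and 8.44 with the scrambled shRNA. Here the groups overlapped, and the spread within them was wide, since replicate 2 was the low array in both the shRNA 4 and the scrambled group, which are the arrays that deviated alike. The changes of 0.01 and 0.004 did not pass (limma adjusted p = 0.959 and 0.991), and their 95% confidence intervals ran from -0.23 to 0.25 and from -0.24 to 0.24. Both changes lay below 0 when arrays were centred on their median or quantile-normalized again.

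Among the methyl-CpG readers Mbd2, which binds methylated CpG and recruits the NuRD co-repressor complex, rose with both Tet1 shRNAs. It had 8.60, 8.47 and 8.75 with Tet1 shRNA 4 and 8.67, 8.66 and 8.73 with Tet1 shRNA 5, against 8.23, 8.03 and 8.23 with the scrambled shRNA. The 6 knockdown arrays lay above the scrambled arrays without overlap. The increases were 1.36-fold (log2 change 0.44 ± 0.09, SE, n = 3 arrays per group, limma adjusted p = 0.00786) and 1.44-fold (0.52 ± 0.09, limma adjusted p = 0.00298). The hairpins differed by 0.08, within a 95% confidence interval from -0.11 to 0.27. With the Sin3A shRNA Mbd2 had 9.60, 9.63 and 9.69, against 9.49, 9.56 and 9.58 with the scrambled shRNA, and the change of 0.10 did not pass (limma adjusted p = 0.235) although these groups did not overlap either.

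Mbd3 encodes a NuRD subunit whose domain binds methylated CpG poorly in mammals. It had 10.83, 10.95 and 10.95 with the Sin3A shRNA, against 11.24, 11.10 and 11.36 with the scrambled shRNA. Mbd3 fell 1.25-fold there without overlap (log2 change -0.32 ± 0.08, SE, n = 3 arrays per group, limma adjusted p = 0.0177), and the call was lost without scrambled replicate 1 (adjusted p = 0.0555, the highest of 12 settings that began at 0.00281). In the Tet1 set Mbd3 had 10.04, 10.11 and 10.13 with Tet1 shRNA 4 and 10.20, 10.13 and 10.13 with Tet1 shRNA 5, against 10.10, 10.21 and 10.13 with the scrambled shRNA. The groups overlapped, and the changes of -0.05 and 0.01 did not pass (limma adjusted p = 0.679 and 0.966). The sign of the shRNA 5 value turned under either other scaling.

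Mbd1, a reader that also carries CXXC domains, had 8.31, 8.29 and 8.34 with Tet1 shRNA 4 and 8.34, 8.39 and 8.40 with Tet1 shRNA 5, against 8.24, 8.15 and 8.25 with the scrambled shRNA. All 6 knockdown arrays were higher than the scrambled arrays. The changes of 0.10 and 0.16 did not pass (limma adjusted p = 0.326 and 0.0865). In the Sin3A set Mbd1 had 9.26, 9.18 and 9.12 with the Sin3A shRNA, against 9.17, 9.18 and 9.28 with the scrambled shRNA, and these groups overlapped. Over the 9 members, the Tet1 shRNA 4 arrays were separate from the scrambled arrays for 7, where 25% of all probe sets were. The counts were 6 of 9 for Tet1 shRNA 5 (28.9% of all probe sets) and 7 of 9 for the Sin3A shRNA (40.5%). Separate arrays could lie very close. For Dnmt1 the nearest were at 10.9175 with Tet1 shRNA 4 and 10.9217 with the scrambled shRNA. Dnmt1, Uhrf1, Dnmt3l and Mbd1 were separate with Tet1 shRNA 4 and did not pass the test.

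Between the hairpins, 0 of 9 members passed with limma, where 0.141% of all probe sets were called (0.0566% higher and 0.0849% lower), and 3 of 9 had an unadjusted p under 0.05, where 8.66% of all probe sets did. The 3 were Dnmt3a, Dnmt3b and Dnmt3l, all with higher values under Tet1 shRNA 5 than under Tet1 shRNA 4, and they are named here after their values were seen.

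The Tet1 response and the Sin3A response were compared, each against its own scrambled arrays. The question was whether a gene moved differently between them. Protein was not measured. The Sin3a transcript itself was called lower with Tet1 shRNAs 4 and 5 (log2 change -0.27 and -0.24, limma adjusted p = 0.0147 and 0.0219). These calls were lost in 3 and 4 of 17 other settings (adjusted p up to 0.0563 and 0.0868). The contrast is thus not of separate targets, and the part of Sin3a in the Tet1 response was not tested. The effect of Sin3A knockdown and the mean Tet1 effect differed for 5 of 9 members, where 20% of all probe sets were called, with a positive difference for 3 members (11.3% of all probe sets) and a negative one for 2 (8.71%). Dnmt3b differed most, with a mean Tet1 effect of -0.82 and a Sin3A effect of 0.27 (difference -1.09 ± 0.07, SE, limma adjusted p = 2.83e-07). For Dnmt1 the effects were -0.09 and 0.25 (difference -0.35 ± 0.07, limma adjusted p = 0.00279). The effects for Uhrf2 were 0.01 and -0.47 (0.48 ± 0.13, limma adjusted p = 0.0161), for Mbd2 0.48 and 0.10 (0.39 ± 0.10, limma adjusted p = 0.0111), and for Mbd3 -0.02 and -0.32 (0.30 ± 0.09, limma adjusted p = 0.0276). The difference for Mbd3 was lost with repeated quantile normalization (adjusted p = 0.0526) and without scrambled replicate 1 or 3 of the Tet1 set, scrambled replicate 1 or 3 of the Sin3A set or Sin3A shRNA replicate 1 (0.0636, 0.0591, 0.0582, 0.0804 and 0.0753), within a range of 0.00866 to 0.0804 over 21 settings. No difference was called for Dnmt3a (-0.02, 95% confidence interval from -0.17 to 0.13), Uhrf1 (0.09, from -0.08 to 0.27), Dnmt3l (0.14, from -0.005 to 0.29) or Mbd1 (0.15, from 0.0003 to 0.31).

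**Figure D3:**
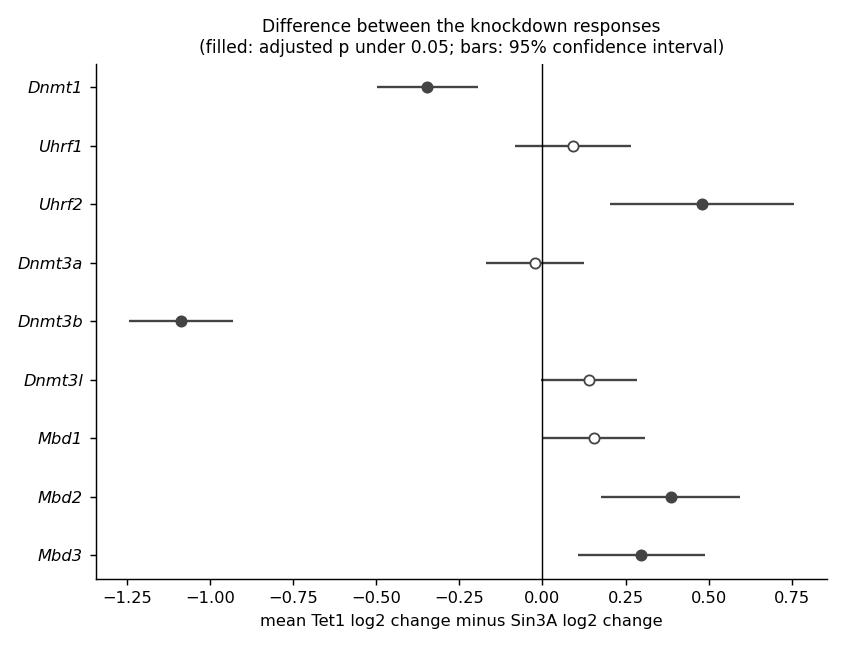
Mean log2 change with the Tet1 shRNAs minus the log2 change with the Sin3A shRNA for each gene, with the 95% confidence interval from a limma fit of all 15 arrays. Filled points had an adjusted p under 0.05. Dnmt3b lies at -1.09 and Dnmt1 at -0.35, left of 0, and Mbd3, Mbd2 and Uhrf2 lie at 0.30, 0.39 and 0.48, right of it.

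Other genes of the pathway were examined as 6 lists. Of 5 measured genes of other methyl-CpG-binding proteins and a relative, 0 rose and 1 fell with both Tet1 shRNAs, and 1 rose and 1 fell with the Sin3A shRNA. The 1 that fell with both was the relative, Mbd6, and the other 4 passed with neither Tet1 shRNA. Mbd6, listed for its kinship to the Mbd family and not as a reader, fell by 0.48 and 0.70 on the log2 scale with Tet1 shRNAs 4 and 5 (limma adjusted p = 0.0035 and 0.00038). Its Sin3A value was -0.10. The zinc finger readers went apart with the Sin3A shRNA, where Zbtb38 fell by 0.25 (limma adjusted p = 0.00636) and Zbtb33 rose by 0.30 (limma adjusted p = 0.0262, with 0.0598 to 0.0862 after leaving out any of the 3 scrambled arrays or Sin3A shRNA replicate 2 or 3).

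Of 15 partners of the methyltransferases, 1 rose and 3 fell with both Tet1 shRNAs, and 3 rose and 3 fell with the Sin3A shRNA. Dppa3, which protects the maternal genome from loss of methylation and counteracts Uhrf1, fell in all 3 knockdowns. Its log2 changes were -0.99 and -0.97 with Tet1 shRNAs 4 and 5 and -0.91 with the Sin3A shRNA (limma adjusted p = 0.00743, 0.00704 and 0.000379), and the shRNA 4 call was lost without both arrays that deviated alike (0.0577). Cdca7, which works with the remodeller Hells, rose by 0.21 and 0.30 with Tet1 shRNAs 4 and 5 (limma adjusted p = 0.0444 and 0.00796). Usp7, a deubiquitinase that binds Dnmt1 and Uhrf1, had changes of -0.27 and -0.28 (limma adjusted p = 0.0315 and 0.022), and the histone methyltransferase gene Ehmt1 of -0.24 and -0.23 (0.0388 and 0.0453). Cdca7 with shRNA 4 lost its call without any 1 of the 9 arrays of the set (adjusted p = 0.059 to 0.142), with the replicate block (0.0797), with median centring (0.0732), when the shRNA 5 arrays were left out together (0.0905) and without both arrays that deviated alike (0.116), so in 13 of 17 settings. Usp7 lost it with either hairpin without scrambled replicate 1 or 3, any array of that hairpin or, for shRNA 4, shRNA 5 replicate 2 (0.0538 to 0.109), and for shRNA 4 also when the shRNA 5 arrays were left out together (0.0843). Ehmt1 lost it with shRNA 4 without scrambled replicate 1 or 3, any shRNA 4 array or shRNA 5 replicate 1 or 2 (0.0589 to 0.118), and with shRNA 5 without scrambled replicate 1 or 3 or any array of either hairpin (up to 0.149). The Ehmt1 calls were also lost with the replicate block (0.0707 for shRNA 4 and 0.0787 for shRNA 5) and when the other hairpin's arrays were left out together (0.079 and 0.0912). With the Sin3A shRNA, Kdm1b, a histone demethylase needed for oocyte methylation, rose by 0.34 (limma adjusted p = 0.00182) and Setd2, the enzyme of a histone mark that Dnmt3b reads, by 0.26 (limma adjusted p = 0.0108, and 0.0832 with all 15 arrays in the fit). Hells, which aids methylation of repeats, fell by 0.23 there (limma adjusted p = 0.0202, with up to 0.0609 without scrambled replicate 2 or Sin3A shRNA replicate 1 or 2).

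**Figure D4:**
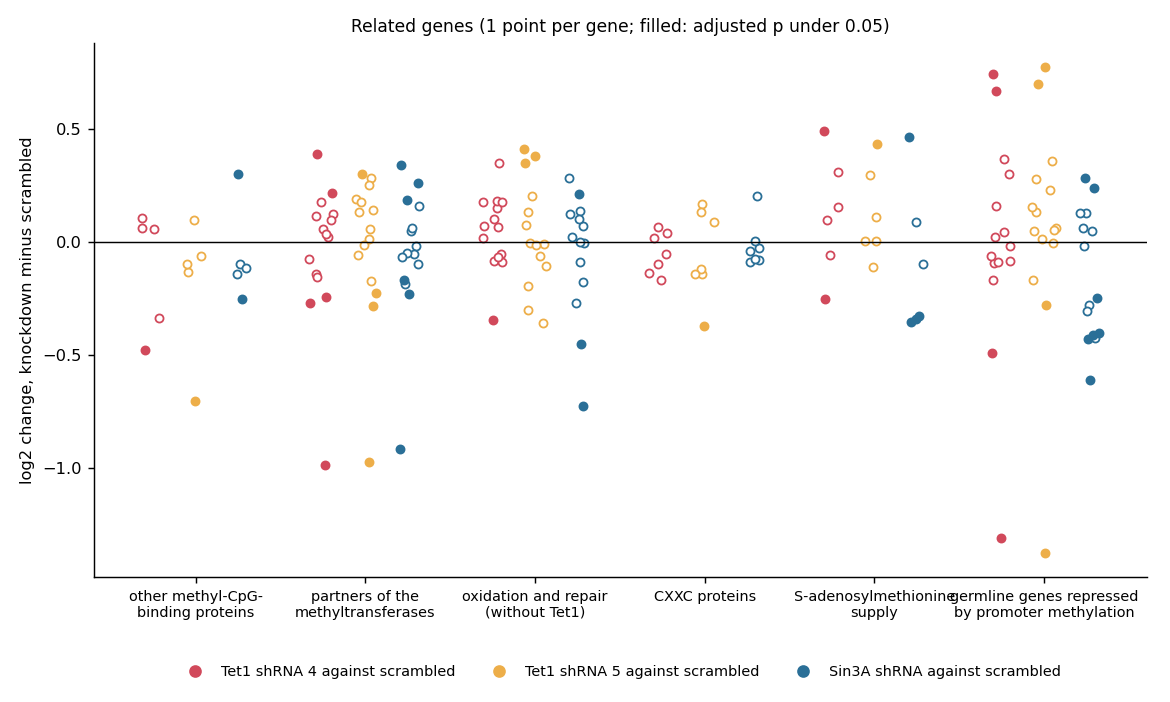
Log2 change of the related genes in 6 lists (1 point per gene, Tet1 left out) against the scrambled arrays of the same set, for Tet1 shRNA 4, Tet1 shRNA 5 and the Sin3A shRNA from left to right within each list. Filled points had an adjusted p under 0.05. Most points are open and lie around 0, and the lowest filled points are Sycp3 (-1.31 and -1.37) and Dppa3 (-0.99, -0.97 and -0.91).

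Among 15 genes of methylcytosine oxidation and repair, Tet1 was the only 1 called for both Tet1 shRNAs, and 2 rose and 2 fell with the Sin3A shRNA. Those were Tet1 (0.31, limma adjusted p = 0.00679) and Tet2 (0.21, limma adjusted p = 0.0329, with 0.0548 to 0.117 without scrambled replicate 2 or 3 or any Sin3A shRNA array, 0.0564 with the replicate block and 0.0574 with all 15 arrays in the fit), which rose, and the DNA glycosylase gene Neil1 (-0.45, limma adjusted p = 0.000824) and the stress gene Gadd45b (-0.73, limma adjusted p = 0.000485), which fell. Tdg, a glycosylase gene among the 15, had mean log2 levels of 2.71, 2.44 and 2.79 with Tet1 shRNA 4, Tet1 shRNA 5 and the scrambled shRNA. The lowest 25% of probe sets on these arrays ended at 5.42 to 5.58, so its lack of a call says little. Of 7 genes with CXXC domains, which bind unmethylated CpG, 0 were called by limma for both Tet1 shRNAs (0 at an unadjusted p under 0.05 in both) and 0 with the Sin3A shRNA (1 at an unadjusted p under 0.05).

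S-adenosylmethionine is the methyl donor of all the methyltransferases. Of 6 measured genes of its supply, 1 rose and 0 fell with both Tet1 shRNAs, and 1 rose and 3 fell with the Sin3A shRNA. Mtr, methionine synthase, rose in all 3 knockdowns, by 0.49, 0.43 and 0.46 (limma adjusted p = 0.00746, 0.0124 and 0.00135). Mtrr, the reductase that reactivates it, fell by 0.36 with the Sin3A shRNA, Shmt2 by 0.33 and Ahcy, which clears the product of methyl transfer, by 0.34 (limma adjusted p = 0.0068, 0.00439 and 0.0244, the last with 0.288 when all 15 arrays entered the fit and 0.0682 to 0.077 without scrambled replicate 2 or 3 or Sin3A shRNA replicate 1 or 3). The median log2 change of these 6 genes was -0.21 with the Sin3A shRNA, where the median of all probe sets was 0.006.

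Germline genes whose promoters are methylated in somatic cells did not share a direction. Of 15 measured, 1 rose and 2 fell with both Tet1 shRNAs, and 2 rose and 5 fell with the Sin3A shRNA. Dazl, an RNA-binding protein gene of germ cells, rose by 0.74 and 0.77 with Tet1 shRNAs 4 and 5 (limma adjusted p = 0.00022 and 0.000178), and Sycp3, a gene of the synaptonemal complex, fell by 1.31 and 1.37 (0.0104 and 0.00725). Mael, a gene of the piRNA pathway, fell by 0.49 and 0.28 with these shRNAs (0.0024 and 0.0364, the second with 0.0728 to 0.126 without scrambled replicate 1 or 3 or any shRNA 5 array) and rose by 0.28 with the Sin3A shRNA (0.0055). With the Sin3A shRNA the genes of the list that fell most among those called were Tex11 (-0.61), Stag3 (-0.43), Ddx4 (-0.41) and Tex19.1 (-0.40), with limma adjusted p of 0.00509, 0.0143, 0.0136 and 0.00265. For Ddx4 it was 0.0625 with all 15 arrays in the fit.

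Likeness to the members called for both Tet1 shRNAs was measured as the Pearson correlation over the 15 arrays of the log2 level minus the mean of the scrambled arrays of the same set. It was computed against 18150 other genes and is given as a description, since the arrays fall into 5 groups and share the scrambled arrays. The genes most like Dnmt3b were the carbonic anhydrase gene Car3 (r = 0.989), the neurogenic factor gene Neurod1 (r = 0.982) and the transcription factor gene Foxp1 (r = 0.978). Car3 changed by -1.13 and -0.64 with Tet1 shRNAs 4 and 5 and by 0.36 with the Sin3A shRNA, Neurod1 by -1.76, -1.23 and 0.77, and Foxp1 by -0.54, -0.40 and 0.29 (limma adjusted p of 0.00724 or less for all 9 values). The genes most like Mbd2 were Prkag1, a subunit gene of AMP-activated kinase (r = 0.981), Sar1b, a GTPase gene of vesicle transport (r = 0.977), and Mtx2, a gene of mitochondrial import (r = 0.976). Mtx2 changed by 0.72 and 0.81 with Tet1 shRNAs 4 and 5 (limma adjusted p = 0.000561 and 0.000289), and its value of 0.10 with the Sin3A shRNA did not pass.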

How the data were processed

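RNA of 15 samples was labelled with the Affymetrix whole transcript kit and hybridised to 1 array each, per the labels' protocols. The deposited table held log2 expression levels for 21212 probe sets named by Entrez gene number, and the authors used affy, RMA and limma, per the submitters' processing notes, with no version, order or genome build given. Symbols came from the platform annotation, which gave exactly 1 symbol for 18786 probe sets. Groups came from the sample titles. The limma package (3.58.1, under R 4.3.3) gave two-sided tests from lmFit and eBayes on 3 fits: the 9 arrays of the Tet1 set together, the 6 arrays of the Sin3A set together, and all 15 arrays for the difference between responses. Benjamini-Hochberg adjustment ran across the whole table with a cutoff of 0.05, and the fits were tested on simulated data. Over the comparisons they recovered 61% to 74% of simulated log2 changes of 0.5 and 94% to 99% of changes of 1. Smaller changes were not simulated, so a small change that did not pass may have been missed. No signal over background was given, so the number of arrays limits the precision. In the Tet1 set 49.1% of probe sets held the same value on at least 2 arrays, and in the Sin3A set 0%.

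The members and lists were chosen with earlier results of these data known. All 9 members are described. From each of the 6 related lists the text names genes called for both Tet1 shRNAs with the same sign or with the Sin3A shRNA, and, where over 4 qualified in a comparison, the 4 with the largest change. The 3 genes most like each member called for both Tet1 shRNAs are also named, leaving out RIKEN and Gm names. Alternatives were other scalings, a filter on dim probe sets, a variance trend, a replicate block, other arrays in the fit and leaving out each array. Deviations from the group mean of same-numbered scrambled and Tet1 shRNA 4 arrays correlated over probe sets (r = 0.27, 0.52 and 0.17 for numbers 1, 2 and 3). Scrambled replicate 1 with shRNA 4 replicate 3, and scrambled replicate 3 with shRNA 4 replicate 1, gave like values (r = 0.28 and 0.16). The other pairs of unlike number had r from -0.46 to -0.27. Only the replicate 2 arrays thus stood out as alike, and no label states a pairing. The main fits took no pairing, and the replicate block is an alternative. Promoter windows came from RefSeq (GRCm38.p6).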

Additional observations from a re-analysis of the deposited data

Results flagged for a closer look

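The responses to the Tet1 and Sin3A knockdowns differed by the test of the difference itself for 5 of the 9 genes, where 20% of all probe sets were called (limma on all 15 arrays, Benjamini-Hochberg adjusted over 21212 probe sets). The mean Tet1 effect minus the Sin3A effect was -1.09 for Dnmt3b (adjusted p = 2.83e-07), and all 6 Tet1 shRNA arrays lay below their scrambled arrays while all 3 Sin3A shRNA arrays lay above theirs. It was -0.35 for Dnmt1 (adjusted p = 0.00279), where the Tet1 effects alone did not pass. For Uhrf2 the difference was 0.48 (adjusted p = 0.0161) and for Mbd3 0.3 (adjusted p = 0.0276), both genes called with the Sin3A shRNA and not with either Tet1 shRNA. The Mbd3 difference was lost in 6 of 21 settings (adjusted p up to 0.0804), and its call with the Sin3A shRNA was lost without scrambled replicate 1 (0.0555). The difference of 0.39 for Mbd2 (adjusted p = 0.0111) came with a call for both Tet1 shRNAs and none for the Sin3A shRNA. Set and knockdown cannot be told apart in these differences beyond what the scrambled arrays of each set take up. The Sin3a transcript was itself called lower with Tet1 shRNAs 4 and 5 (log2 change -0.27 and -0.24), and the Tet1 transcript was called higher with the Sin3A shRNA (0.31).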

How the results depend on the processing

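With 1 array left out at a time, 1662 to 2633 probe sets were called for Tet1 shRNA 4 (2459 with all arrays), 2004 to 3077 for Tet1 shRNA 5 (2934), 3359 to 4944 for the Sin3A shRNA (5261) and 3408 to 4511 for the difference between responses (4241). The members called stayed at 3 for each Tet1 shRNA, fell to between 2 and 4 for the Sin3A shRNA (5), and were 4 to 5 for the difference (5). The Sin3A counts of members were 2 without scrambled replicate 1 and 3 without scrambled replicate 3 or Sin3A shRNA replicate 2, and the lowest count of probe sets came without Sin3A shRNA replicate 2. The contrast of Tet1 shRNA 5 with Tet1 shRNA 4 was the least stable. It called 30 probe sets with all arrays and 0 to 36 with 1 array left out, 61 without the lowest 25% of probe sets, 48 with a variance trend and robust fit, 188 with all 15 arrays in the fit, 0 with a replicate block or only the groups compared, and 1 without both arrays that deviated alike, an alternative chosen after seeing the data. Members called there were 0 with all arrays, 1 without the lowest 25% or with the trend (Dnmt3b, adjusted p = 0.0438 and 0.0312) and 2 with all 15 arrays (Dnmt3b and Dnmt3a, 0.00909 and 0.0319). Higher values made up 40% of those calls on the deposited scale, 51.6% after median centring and 33.3% after repeated quantile normalization.

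Of 756 values of members under alternatives, 708 kept their direction and side of the threshold, 18 lost a call, 4 gained one and 26 turned sign, none of these 26 from a called value. After median centring Uhrf2 was -0.0042 with Tet1 shRNA 4 and -0.0055 with Tet1 shRNA 5, and Mbd3 -0.0026 with Tet1 shRNA 5. After repeated quantile normalization these were -0.0271, -0.0434 and -0.0268, and Uhrf2 with Tet1 shRNA 5 was -0.0847 without both arrays that deviated alike. With 1 array left out, Uhrf2 ranged from -0.0748 to 0.113 with Tet1 shRNA 4, from -0.0847 to 0.064 with Tet1 shRNA 5 and from -0.1092 to 0.0507 between the hairpins. Mbd3 ranged from -0.0172 to 0.0393 with Tet1 shRNA 5, Uhrf1 from -0.0457 to 0.0588 and Mbd1 from -0.0586 to 0.0125 with the Sin3A shRNA, and the difference for Dnmt3a from -0.0527 to 0.0096. The cause was not tested. Of 1474 values of related genes that were called, 130 lost the call and 0 turned sign.

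For the other comparisons than Tet1 shRNA 4 against scrambled, deviations of arrays with the same replicate number correlated with r from -0.29 to 0.04 in the Tet1 set and from -0.27 to 0.02 in the Sin3A set. No pairing by number showed there. With the replicate block 2290, 2784, 4111 and 3723 probe sets were called for Tet1 shRNA 4, Tet1 shRNA 5, the Sin3A shRNA and the difference, and members called were 3, 3, 4 and 5. The block ended no member call in the comparison of Tet1 shRNA 4 with scrambled. No member had a second probe set, so that alternative gave no value.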
